A study of Mus musculus with 8 samples.

Results

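The teneurins (Tenm1 to Tenm4), the latrophilins (Adgrl1 to Adgrl3) and the FLRT genes (Flrt1 to Flrt3) were taken by name, as 3 families of 4, 3 and 3 genes. All 10 were among the 26711 features of single-nucleus RNA-seq of mouse primary visual cortex (V1) at postnatal day 21, and 16 further genes that encode binding partners were counted beside them. Every mouse was GRfl/fl, that is, had floxed alleles of the glucocorticoid receptor gene, and received at birth an AAV2/5 vector in which the astrocyte promoter GfaABC1D drove Cre (GR-KO) or the inactive ΔCre (GR-Con), each with eGFP-CAAX. Mice were reared under normal light (NR) or in darkness (DR). Both vectors under both rearings gave 4 groups of 2 mice, each with 1 male and 1 female library, and libraries are named by group and sex.

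Teneurins are large single-pass membrane proteins that bind each other and latrophilins across the synaptic cleft. Latrophilins are adhesion G-protein-coupled receptors on the other side of that contact, and their extracellular part also binds FLRT proteins, which carry leucine-rich repeats and double as repulsive ligands of the Unc5 netrin receptors. In cortex and hippocampus the 3 families are known for cell migration and for choosing which axons and dendrites form synapses, and Tenm3 is known for the mapping of axons in the visual pathway.

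The gene positions below are on GRCm38 (GENCODE). Tenm1 lies on X:42527866-43429126 (minus strand), Tenm2 on 11:36006656-37235964 (minus), Tenm3 on 8:48227682-48843951 (minus) and Tenm4 on 7:96171246-96911093 (plus). Adgrl1 spans 8:83900105-83941954 (plus), Adgrl2 3:148815583-148990555 (minus) and Adgrl3 5:81020138-81825133 (plus). Flrt1 at 19:7092001-7105729 (minus) lies inside Macrod1 and Flrt3 at 2:140650914-140671469 (minus) lies inside Macrod2, both on the opposite strand, and Flrt2 at 12:95692226-95785215 (plus) has no protein-coding gene on the opposite strand. Cell Ranger was run with its default settings, which count reads of the sense strand for this kit, so reads from opposite-strand genes are not meant to be counted for these members. Small annotated genes or pseudogenes lie on the same strand within Tenm1 (3), Tenm3 (2), Tenm4 (2), Adgrl3 (3) and Flrt2 (2), and reads there could be split or dropped.

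The 250 bases before the RefSeq start are shown for Flrt2 and Tenm3, the FLRT gene and the teneurin called in the most cell types when DR was compared with NR over both vectors. The Flrt2 window is chr12:95691976-95692225 (GRCm38.p6, plus strand) and ends directly before the annotated gene start. The Tenm3 window is chr8:48674691-48674940 (minus strand), before a RefSeq start that lies inside the longer GENCODE gene. Capitals mark the E-box CACGTG in Flrt2 and the full cAMP response element TGACGTCA in Tenm3.
Flrt2: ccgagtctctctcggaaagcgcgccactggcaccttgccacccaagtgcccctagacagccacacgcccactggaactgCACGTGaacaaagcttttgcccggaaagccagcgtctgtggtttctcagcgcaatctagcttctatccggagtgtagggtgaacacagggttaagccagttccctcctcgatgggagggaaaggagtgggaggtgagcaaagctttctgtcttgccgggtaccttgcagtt
Tenm3: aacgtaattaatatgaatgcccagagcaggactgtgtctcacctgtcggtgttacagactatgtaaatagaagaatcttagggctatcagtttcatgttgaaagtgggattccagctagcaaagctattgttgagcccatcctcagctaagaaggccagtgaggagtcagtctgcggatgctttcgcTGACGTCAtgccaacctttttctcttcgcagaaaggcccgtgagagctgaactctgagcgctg
Both motifs read the same on either strand. CACGTG, 171 bases before the Flrt2 start, was in 6.02% of 32851 RefSeq windows of this length, and TGACGTCA, 63 bases before the Tenm3 start, was in 1.55% of them. The windows found for 9 of the 10 genes (12 in all, none for Flrt1) were also searched on both strands for the AP-1 site TGANTCA (6.75% of all windows), the EGR site GCGTGGGCG (0.536%) and the full glucocorticoid response element (0.00913%), and these letters were in none of the 12. The shorter letters AGAACA of one arm of that element (16.1% of all windows) was in the windows of Tenm1 and in 1 of the 2 of Tenm4, and TGACG, an arm of the cAMP response element, in those of Tenm3 and Adgrl2 (17.8% of all windows). A match is a description of letters and does not show a bound site. The only windows of Tenm1, Tenm2 and Adgrl2, like that of Tenm3, lie inside the longer GENCODE gene. Those of Adgrl3 lie just past its annotated start. The bases before the GENCODE starts of these genes were not searched.

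The libraries held 9517 to 15161 nuclei and 168632129 to 288774016 UMIs each, and 20 deposited cell types (8 excitatory, 5 inhibitory, 7 non-neuronal). Of 66 marker genes, 54 were highest in the type that they mark, with none of 3 highest in L5PT and none of 3 in L6IT. Cre UMIs were 0 in every GR-Con library and 190 to 1054 in GR-KO libraries. Nr3c1 in astrocytes was 207 to 263 CPM in GR-Con and 268 to 284 CPM in GR-KO, and these counts over the whole gene do not read the loss of the floxed exon. The labels give a sort by the DNA dye DRAQ5, and the methods add that the DRAQ5+ nuclei taken were GFP-. The eGFP of the vector had a CAAX tag, which directs it to membranes, and whether the sort altered the share of transduced astrocytes was not tested. Of 101098 distinct barcodes, 1220 were shared by 2 or more libraries. The female DR GR-Con library had 5 endothelial, 1 SMC-Peri, 3 VLMC and 4 microglial nuclei. The male NR GR-Con library had 2 microglial and 7 SMC-Peri nuclei and the male NR GR-KO library 4 microglial nuclei. L5PT had 59 nuclei in the female NR GR-KO library and 384 to 504 in the others. A type was fitted only if none of the libraries compared had under 10 nuclei of it, and microglia reached this number in 5 libraries.

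Levels are given as CPM, the UMIs of a gene scaled by all UMIs of the same cell type and library to the standard common total, as mean ± SD over libraries with at least 10 nuclei of the type. CPM are not divided by gene length, so levels are compared between cell types and not between genes. No test was made between cell types, which were clustered on these same counts.

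Each teneurin had its own leading cells. Tenm1 was led by inhibitory neurons, at 997 ± 258 CPM in ChC (chandelier cells, n = 3, all DR libraries) and 937 ± 110 CPM in Pvalb (n = 8), whose ranges overlapped. L6b followed at 827 ± 89.2 CPM (n = 8). Among excitatory types Tenm1 was lowest in L2/3, at 193 ± 108 CPM, and astrocytes were last at 17.4 ± 7.74 CPM. Tenm2 ran the other way within excitatory neurons, with L4 first at 6789 ± 609.9 CPM, above L5IT (5906 ± 445 CPM) in 8 of 8 libraries although the ranges overlapped, and L6b last of the excitatory types at 2719 ± 169 CPM. Astrocytes and oligodendrocytes had 181 ± 62.4 and 183 ± 57.4 CPM of Tenm2.

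Tenm3 was the member with the clearest single peak. L5PT, the corticofugal layer 5 neurons, had 2257 ± 328 CPM (n = 8), which was 2.24 times the level of the next type, L6IT (1009.7 ± 99.5 CPM), with no overlap between the 8 libraries of each. Astrocytes followed L5IT (888 ± 73.6 CPM) at 778 ± 128 CPM, above the median inhibitory type (479 CPM), while oligodendrocytes had 53.2 ± 9.65 CPM. Tenm4 was spread over L6IT (1308 ± 95.4 CPM), L5IT (1266 ± 141 CPM), ChC (1202 ± 61.6 CPM, DR libraries only) and L4 (1200 ± 91.9 CPM), which overlapped in range. Tenm4 was lowest in OPCs at 31.2 ± 9.86 CPM.

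The single highest type of each latrophilin was non-neuronal, for Adgrl3 only without the TMM scaling given below. The median excitatory type was still above the median non-neuronal type. These medians were 95.3 against 90.5 CPM for Adgrl1, 113.9 against 96.6 CPM for Adgrl2 and 1726 against 1163 CPM for Adgrl3. Adgrl1 was highest in astrocytes (161 ± 15.1 CPM, n = 8), with no overlap with the next type, L6CT (118 ± 8.29 CPM), and lowest in microglia (36.3 ± 9.70 CPM, n = 5). Adgrl2 was highest in endothelial cells (395 ± 132 CPM, n = 7) and next in microglia (229 ± 19.2 CPM, n = 5), and the oligodendrocyte lineage had the least, at 11.8 ± 4.93 CPM in OPCs and 8.91 ± 2.42 CPM in oligodendrocytes. Adgrl3 was broad. OPCs had 2427 ± 89.2 CPM, endothelial cells 2093 ± 227 CPM and L5PT 2027 ± 139.6 CPM, against 132 ± 34.9 CPM in microglia. Endothelial nuclei also held 4567 ± 362 CPM (n = 7, range 3976 to 5009) of 11 summed neuronal genes, all detected, against 1015 ± 207 CPM in OPCs, 1250 ± 327 CPM in microglia and 8633 ± 268 CPM in L5PT. The sum in VLMCs was 938 to 6255 CPM. The part of neuronal RNA in these levels was not tested.

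Among the FLRT genes, Flrt1 was highest in OPCs (46.9 ± 4.39 CPM), above L5PT (34.7 ± 5.65 CPM) in 8 of 8 libraries with overlapping ranges. Flrt2 was highest in VLMCs, the fibroblast-like cells of the meninges, at 585 ± 159.8 CPM (n = 7), a level that overlapped that of L6CT (576 ± 140 CPM), and was lowest in oligodendrocytes (22.8 ± 6.94 CPM). Flrt3 differed little between L4 (41.8 ± 4.14 CPM), Lamp5 (40.7 ± 6.93 CPM) and Vip (40.6 ± 2.99 CPM) and was 8.998 ± 1.52 CPM in microglia. An excitatory type led for 4 of the 10 genes. With CPM scaled by TMM factors this became 6, as the leading type turned to L5PT for Adgrl3 and L6CT for Flrt2.

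**Figure D1:**
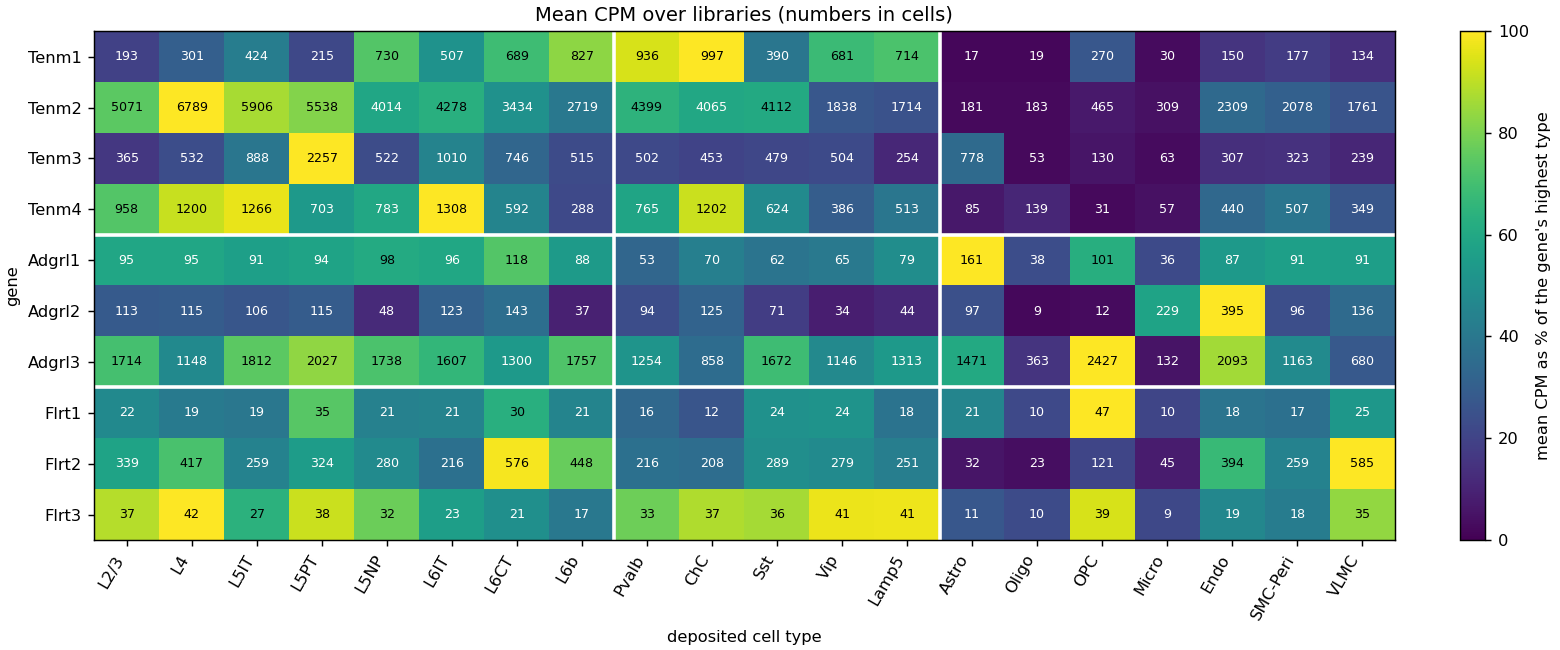
Mean CPM of each gene (rows, grouped by family) in each deposited cell type (columns, grouped as excitatory, inhibitory and non-neuronal), with the value in each cell and the colour as a percent of the gene's own highest type. L5PT stands alone for Tenm3 at 2257 CPM, and the 3 latrophilins have their brightest cells among non-neuronal types. For Adgrl3 this is OPC at 2427 CPM, with L5PT at 2027 CPM.

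Within the 8 excitatory types the 3 largest gradients among the members were those of Tenm3, Tenm4 and Tenm1. The fold between the highest and lowest excitatory type was 6.18 for Tenm3, 4.54 for Tenm4, 4.28 for Tenm1 and 2.50 for Tenm2, against a median of 1.61 over 11425 genes. These folds stood at the 84.6, 81.2, 80.4 and 70.5 percentiles of those genes. The latrophilins ranged from 1.34 for Adgrl1 (27.2 percentile) through 1.77 for Adgrl3 (56.3) to 3.90 for Adgrl2 (78.9). The FLRT genes had 1.86 for Flrt1 (59.3), 2.50 for Flrt3 (70.4) and 2.66 for Flrt2 (72.0), so that Adgrl2 and Flrt2 stood above Tenm2. Over the means of the 8 excitatory types, which share their libraries, Tenm1 ran against Tenm2 (Pearson r = -0.769 of log2 levels) and Flrt3 (r = -0.792). Tenm2 ran with Flrt3 (r = 0.842) and with Tenm4 (r = 0.799). These were picked as the largest values in either direction among all pairs of members. Over all 20 cell types Tenm1 instead ran with Tenm2 (r = 0.777) and Flrt3 (r = 0.698). Tenm2 again ran with Flrt3 (r = 0.672) and Tenm4 (r = 0.8955) there.

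The genes whose levels over the 20 cell types were most like each member, by Pearson r of log2(mean CPM + 1) among 15747 genes, were Chd5 for Tenm1 (r = 0.945), Fcho1 for Tenm2 (0.977) and Dclk1 for Tenm3 (0.907). For Tenm4 it was Gm15414 (0.973), an antisense gene within Tenm4, whose reads are told from those of Tenm4 by strand alone. The closest to the latrophilins were Ncan for Adgrl1 (0.906), Trrap for Adgrl2 (0.870) and Plcb1 for Adgrl3 (0.917), and to the FLRT genes Rgs9 for Flrt1 (0.814), Plxna2 for Flrt2 (0.927) and Pknox2 for Flrt3 (0.915). The second in order were Mmp24, Grin1, Gm44167, Pi4ka, Gabrb1, Fbxl17, 4930545L23Rik, Dpysl3, Ccdc30 and Vps37d.

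The first comparison asked how darkness changed these genes over both vectors, 4 DR libraries against 4 NR libraries with the vector as a term. UMI counts summed per library and cell type were tested with the edgeR likelihood ratio test, with Benjamini-Hochberg adjustment over all genes of the cell type and calls at an adjusted p under 0.05. SE is an approximate standard error, worked back from the log2 fold change and its likelihood ratio statistic. It therefore carries no information on precision apart from that test. Of 150 pairs of a member and a cell type, 15 were called, 11 higher and 4 lower in DR, where 5.24% of all gene and cell type pairs were called (2.62% higher and 2.63% lower). The quasi-likelihood test of edgeR called 8 (3.3% over all genes) and DESeq2 called 19 (5.03%). The 4 pairs lower in DR were all Flrt2 in excitatory neurons, and the 11 higher ones were spread over Tenm2, Tenm3, Tenm4, Adgrl1, Adgrl3 and Flrt1. The median log2 fold change of the 150 pairs was 0.08, and the median over all genes lay between -0.04 and 0.03 in every cell type of every comparison. By mean CPM over cell types, the members stood between the 75.7 (Flrt1) and 99.9 (Tenm2) percentiles of all features. The shares over all genes, here and below, were not matched for level.

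Flrt2, the FLRT ligand of Unc5 receptors and latrophilins, fell in L4, the layer that receives thalamic input. Its level in L4 was 523 (male) and 515 (female) CPM in NR GR-Con, 437 and 451 CPM in NR GR-KO, 396 and 384 CPM in DR GR-Con, and 311 and 323 CPM in DR GR-KO. All 4 DR libraries lay under all 4 NR libraries, and within either rearing both GR-KO libraries lay under both GR-Con ones. The log2 fold change of DR over NR was -0.41 (SE 0.08, adjusted p = 7.0e-05), with values of -0.43 to -0.38 when each library was left out.

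In L5IT, Flrt2 was 300.2 and 311 CPM in NR GR-Con, 282 and 283 CPM in NR GR-KO, 249 and 253 CPM in DR GR-Con, and 195 and 195 CPM in DR GR-KO. The 4 DR libraries were again under all NR ones, at a log2 fold change of -0.41 (SE 0.10, adjusted p = 0.0036), and the call ended without the male DR GR-KO library (-0.37, adjusted p = 0.078). Flrt2 was also called in L2/3 (-0.58, adjusted p = 0.011) and L6IT (-0.64, adjusted p = 0.029), where the DR and NR libraries overlapped and single libraries ended the call. In L2/3 these were the female NR GR-Con (adjusted p = 0.054), female NR GR-KO (0.078), female DR GR-Con (0.054) and male DR GR-KO (0.071) libraries. The L6IT call was lost in 5 of the 8 fits and under the quasi-likelihood test (0.099). Among the 8 excitatory types, L5NP, L5PT, L6b and L6CT had log2 fold changes of -0.07, -0.04, 0.02 and -0.30 and were not called.

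**Figure D2:**
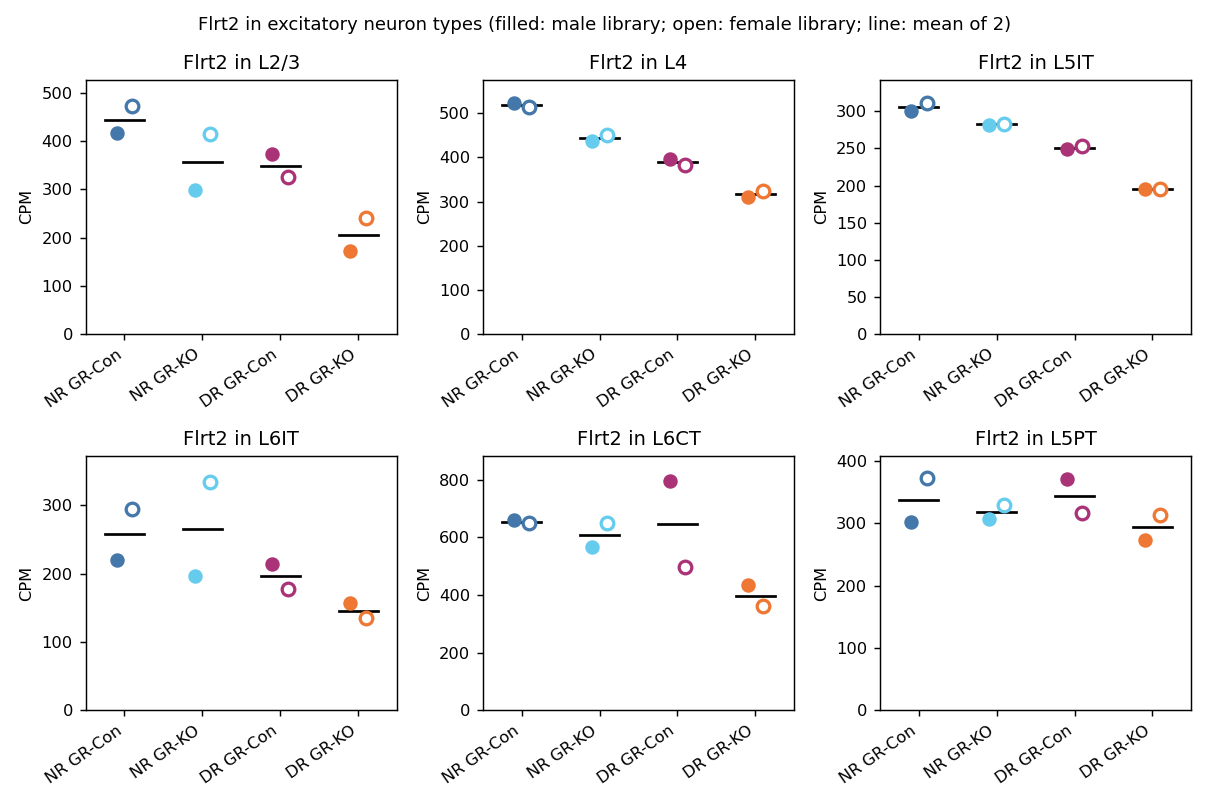
Flrt2 in 6 excitatory neuron types, in CPM (vertical axis, from 0) by group, with filled points for male and open points for female libraries and a line at the mean of 2. In L4 and L5IT the DR libraries sit under the NR ones, from 523 down to 311 CPM in L4, and in L5PT the groups overlap.

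Tenm2, which localises to synapses and binds latrophilins, rose in Lamp5 interneurons. Its level there was 1391 and 1262 CPM in NR GR-Con, 1749 and 1358 CPM in NR GR-KO, 1948 and 2174 CPM in DR GR-Con, and 1907 and 1924 CPM in DR GR-KO. No DR library overlapped the NR range, and the log2 fold change was 0.52 (SE 0.11, adjusted p = 6.4e-04), called without any 1 of the 8 libraries.

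Tenm3 rose in Sst interneurons, the cells that target distal dendrites, at 294 and 233 CPM in NR GR-Con, 439 and 276 CPM in NR GR-KO, 887 and 399 CPM in DR GR-Con, and 692 and 615 CPM in DR GR-KO. The female DR GR-Con library at 399 CPM fell within the NR range and the male one was the highest of all 8. The log2 fold change was 1.09 (SE 0.22, adjusted p = 0.0012) and lay between 0.77 and 1.25 when libraries were left out, with each of the 8 fits called, but the quasi-likelihood test (adjusted p = 0.11) and DESeq2 (0.053) did not call it. Vip interneurons (0.48, adjusted p = 0.031) and OPCs (0.39, adjusted p = 0.022) were called in the same direction. The Vip call ended without any 1 of 5 of the 8 libraries (adjusted p of 0.056 to 0.25), and the largest of these was without the male DR GR-KO library. It also ended under the quasi-likelihood test (0.12). The OPC call ended without any 1 of 6 of the 8 libraries (adjusted p of 0.06 to 0.16), and the largest was without the female DR GR-KO library. In OPCs the summed neuronal RNA was 871 to 1362 CPM in NR and 809 to 1017 CPM in DR.

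In L6CT, the corticothalamic cells, Flrt1 was 22.3 and 26.0 CPM in NR GR-Con, 24.4 and 28.8 CPM in NR GR-KO, 30.7 and 29.6 CPM in DR GR-Con, and 40.0 and 34.1 CPM in DR GR-KO. The DR libraries were all above the NR ones (0.41, SE 0.11, adjusted p = 0.004), and the call ended without the male NR GR-Con (adjusted p = 0.052) or male DR GR-KO library (0.059). Tenm4 in L5PT was 626 and 585 CPM in NR GR-Con, 609 and 619.9 CPM in NR GR-KO, 742 and 821 CPM in DR GR-Con, and 850 and 768 CPM in DR GR-KO. The DR libraries did not overlap the NR ones here either (0.38, SE 0.10, adjusted p = 0.008), although leaving out the male NR GR-Con (0.053), female NR GR-Con (0.065), female DR GR-Con (0.066) or male DR GR-KO library (0.085) ended the call, as did the quasi-likelihood test (0.057).

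In the comparison over both vectors the latrophilin calls were Adgrl3 and Adgrl1, both in oligodendrocytes. Adgrl3 there was 310.1 and 251 CPM in NR GR-Con, 260.3 and 351 CPM in NR GR-KO, 368 and 494 CPM in DR GR-Con, and 433 and 439.6 CPM in DR GR-KO. All DR libraries lay above all NR ones, at a log2 fold change of 0.57 (SE 0.14, adjusted p = 0.0031), called in each of the 8 fits that left out 1 library. Adgrl1 was 30.7 and 32.2 CPM in NR GR-Con, 33.9 and 35.8 CPM in NR GR-KO, 41.9 and 41.7 CPM in DR GR-Con, and 43.8 and 44.8 CPM in DR GR-KO. These did not overlap either (0.38, SE 0.10, adjusted p = 0.0097), but the call ended without the male NR GR-Con (0.088), male NR GR-KO (0.1), male DR GR-KO (0.061) or female DR GR-KO library (0.11). Neuronal RNA in oligodendrocytes, the summed CPM of 11 neuronal genes of which all 11 had UMIs in every library, was 376 to 821 CPM in NR and 338 to 556 CPM in DR. Its part in the result was not tested.

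The remaining calls over both vectors were Tenm4 in astrocytes (0.49, adjusted p = 0.014), Flrt1 in L6IT (0.39, adjusted p = 0.025) and Tenm2 in Sst (0.29, adjusted p = 0.046). Each was lost without 4, 4 and 7 single libraries, respectively, and under the quasi-likelihood test (adjusted p of 0.13, 0.069 and 0.11). For Tenm4 in astrocytes these included both NR GR-Con libraries (adjusted p of 0.21 for the male and 0.11 for the female), and neuronal RNA there was 588 to 1173 CPM in NR and 629.5 to 893 CPM in DR. Of 230 pairs of the 16 partner genes, 19 were called, all higher in DR. They were led by the postsynaptic scaffold gene Shank2 in L6CT (0.69, adjusted p = 2.4e-07) and L6IT (0.49, adjusted p = 4.4e-05) and by the presynaptic neurexin gene Nrxn2 in L6CT (0.53, adjusted p = 5.4e-05).

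Within GR-Con alone, darkness was compared in 2 libraries against 2, which are also part of the comparison above. Of 150 pairs 7 were called, all higher in DR, against 2.25% over all genes (1.41% higher). The quasi-likelihood test called 3 (0.495% over all genes) and DESeq2 called 7 (1.51%). The 7 called by DESeq2 are not the same 7, as it did not call Adgrl2 or Tenm3 in Sst. A sex term raised the calls to 15, 13 higher and 2 lower (3% over all genes). Flrt2 was not among the 7 calls of the likelihood ratio test. Its log2 fold changes were -0.40 (adjusted p = 0.13, and 0.039 with a sex term) in L4 and -0.29 (adjusted p = 0.28) in L5IT. Tenm1, the X-linked teneurin, supplied 3 of the 7 calls, in L2/3, L4 and L5IT.

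In L2/3, Tenm1 was 91.6 (male) and 78.4 (female) CPM in NR GR-Con and 352 and 219.7 CPM in DR GR-Con. The DR GR-Con libraries were both above the NR GR-Con ones, and the log2 fold change was 1.71 (SE 0.27, adjusted p = 3.8e-08), between 1.30 and 2.02 when libraries were left out. The GR-KO libraries had 334 and 120.5 CPM in NR and 232 and 117 CPM in DR, and the NR GR-KO libraries lay above both NR GR-Con ones. In GR-KO the log2 fold change of DR was -0.32 (adjusted p = 0.8), over both vectors it was 0.69 (adjusted p = 0.37), and the interaction, tested for the same gene and type, was 2.04 (adjusted p = 0.29). Sex as a term blocks the male and the female library of each group. With it, the interaction of Tenm1 passed the test in L2/3 (adjusted p = 1.4e-04), L4 (1.2e-06) and L5IT (0.0058). Without it, the likelihood ratio test called none of these types (0.29, 0.33 and 0.27). DESeq2 (0.48, 0.71 and 0.88) called none either, nor did the quasi-likelihood test (0.54, 0.64 and 0.46). The sex term raised the interaction calls over all genes from 0.181% to 0.59%.

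In L5IT, Tenm1 was 301 and 286 CPM in NR GR-Con and 567 and 485 CPM in DR GR-Con, without overlap (0.84, SE 0.16, adjusted p = 9.1e-06). The GR-KO libraries had 647 and 326 CPM in NR and 473 and 307 CPM in DR. In L4 the GR-KO libraries had 449 and 231.5 CPM in NR and 314.5 and 176 CPM in DR. L4 had 211 and 179 CPM in NR GR-Con and 516 and 333 CPM in DR GR-Con (1.14, SE 0.26, adjusted p = 9.2e-04), also without overlap. This call ended without the female NR GR-Con library (1.03, adjusted p = 0.16) and under the quasi-likelihood test (adjusted p = 0.15).

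Adgrl2 was called in both of the large interneuron classes. Sst had 26.3 and 46.7 CPM in NR GR-Con and 99.3 and 73.3 CPM in DR GR-Con (1.23, SE 0.25, adjusted p = 6.6e-04), and Pvalb had 63.6 and 78.0 CPM in NR GR-Con and 110.2 and 103 CPM in DR GR-Con (0.59, SE 0.14, adjusted p = 0.0052). The groups did not overlap in either type. The Sst call was lost under DESeq2 (adjusted p = 0.38) and the quasi-likelihood test (0.12), and the Pvalb call without the male NR GR-Con library (0.44, adjusted p = 0.41) and under the quasi-likelihood test (0.081). In the GR-KO libraries Adgrl2 in Sst was 112 and 39.1 CPM in NR and 93.0 and 82.2 CPM in DR, which overlapped. In Pvalb the GR-KO libraries also overlapped, at 132.8 and 71.6 CPM in NR and 99.3 and 94.3 CPM in DR.

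The libraries already given for Tenm2 in Lamp5 and Tenm3 in Sst also gave calls in GR-Con alone. Tenm2 in Lamp5 was higher by 0.68 (SE 0.14, adjusted p = 0.0021), a call lost without the male (0.12) or female (0.32) NR GR-Con library. Tenm3 in Sst was higher by 1.28 (SE 0.31, adjusted p = 0.012), lost without the male NR GR-Con (1.46, adjusted p = 0.06), female NR GR-Con (1.12, adjusted p = 0.29) or male DR GR-Con library (0.58, adjusted p = 0.091), under DESeq2 (0.91) and under the quasi-likelihood test (0.22). Of 230 partner pairs 9 were called, led by the axon guidance receptor genes Robo1 in L5IT (3.26, adjusted p = 2.7e-25), Unc5d in Vip (0.70, adjusted p = 0.0033) and Unc5d in Pvalb (0.53, adjusted p = 0.0044). Both Unc5d calls were lost in 2 of the 4 fits that left out 1 library, and the one in Vip under the quasi-likelihood test (0.081).

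**Figure D3:**
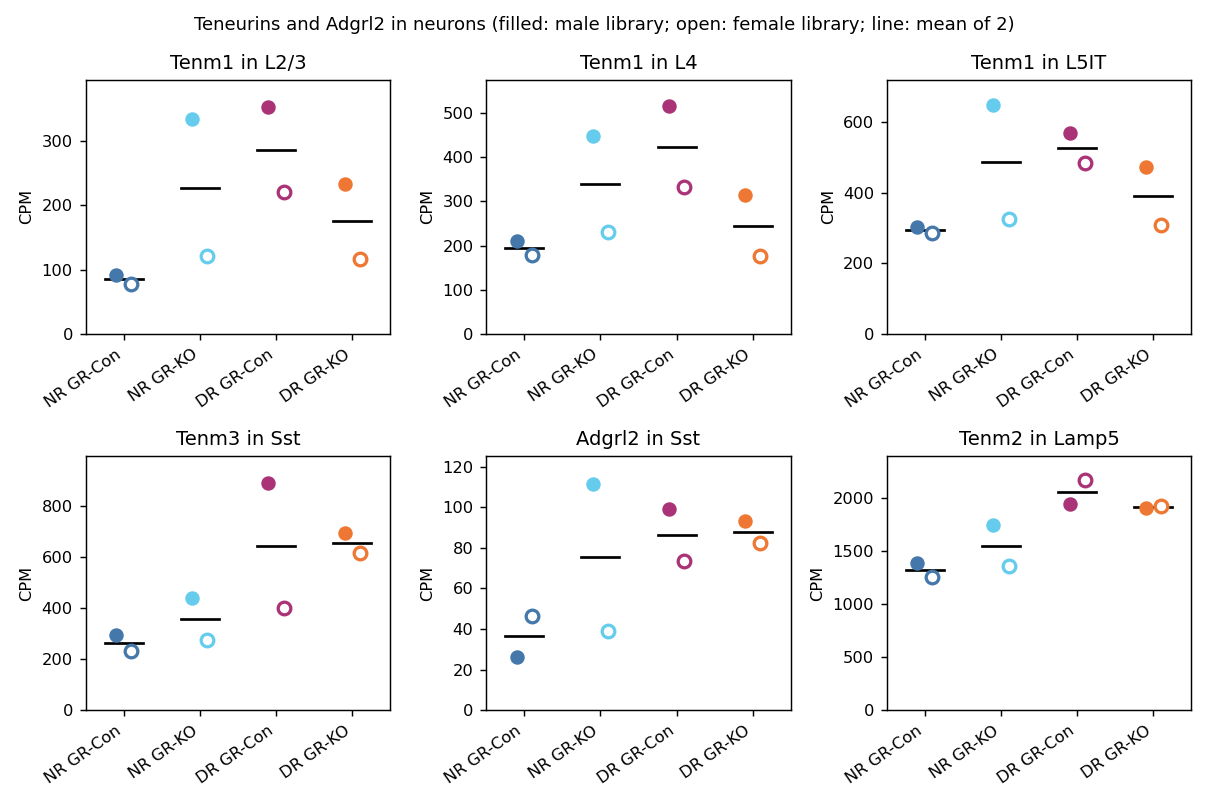
Tenm1, Tenm3, Adgrl2 and Tenm2 in neuron types, in CPM (vertical axis, from 0) by group, with filled points for male and open points for female libraries and a line at the mean of 2. Tenm1 in L2/3 is 78.4 to 91.6 CPM in NR GR-Con and 219.7 to 352 CPM in DR GR-Con, while the male library is the higher one in each group.

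The male libraries had the higher Tenm1 level in all 4 groups in 8 of 15 cell types (L2/3, L4, L5IT, L6CT, Pvalb, Sst, Vip and OPC), and the female ones in none. Over all genes the male library was higher in all 4 groups for 6.11% to 9.37% of genes per type, and no other member had more than 3 such types. The cell types come from the same mice, so they are not separate observations. The share of all genes that reach as many types as Tenm1 was not computed. In L2/3 the 4 male libraries averaged 252 ± 119 CPM and the 4 female ones 134 ± 60.3 CPM. With 1 male and 1 female mouse per group, sex and the individual mouse cannot be told apart within a group.

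Within GR-KO, the 2 DR libraries were compared with the 2 NR libraries. Of 175 pairs 18 were called, 4 higher and 14 lower in DR, against 3.66% over all genes (1.69% higher and 1.96% lower). Of the 175 pairs the quasi-likelihood test called 5 (0.857% over all genes) and DESeq2 called 18 (2.53%). The 18 called by DESeq2 are not the same 18. It did not call Flrt1 in L5PT or L6CT, Flrt2 in astrocytes or L6IT, or Tenm1 in oligodendrocytes, SMC-Peri or VLMCs. Non-neuronal types held 10 of the 14 lower pairs, and 5 of them were in VLMCs, where 19.9% of all genes were called. Over all genes 2.88% were called lower in non-neuronal types, and the share called in either direction was 2.85% in astrocytes, 3.79% in oligodendrocytes and 1.52% in SMC-Peri.

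VLMCs had 2405 and 3312 CPM of Tenm2 in NR GR-KO and 320.2 and 371 CPM in DR GR-KO (-3.30, SE 0.40, adjusted p = 2.0e-14). Tenm4 had 484 and 601 CPM in NR GR-KO and 81.2 and 70.1 CPM in DR GR-KO (-3.10, SE 0.38, adjusted p = 3.6e-14), and Tenm3 had 332 and 336 CPM against 139.8 and 137 CPM (-1.52, SE 0.31, adjusted p = 1.9e-05). No library of one rearing overlapped the other for any of the 3 genes, and such separation was not counted over all genes. Adgrl3 was 960.2 and 786 CPM in NR GR-KO and 415 and 491 CPM in DR GR-KO (-1.19, SE 0.33, adjusted p = 0.0033), and Tenm1 was 338 and 142 CPM against 13.5 and 93.5 CPM (-2.32, SE 0.68, adjusted p = 0.0052). The groups did not overlap, and both calls ended without the male DR GR-KO library (adjusted p = 0.17 for Adgrl3 and 0.056 for Tenm1). The Tenm1 value was -4.37 without the female DR GR-KO library and -1.60 without the male NR GR-KO library, and neither DESeq2 (adjusted p = 0.35) nor the quasi-likelihood test (0.053) called it.

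The summed level of the 11 neuronal genes in VLMCs was 5150 and 6255 CPM in NR GR-KO and 938 and 1472 CPM in DR GR-KO, with all 11 genes detected in each, so it moved with the teneurins. It was 6042 and 4836 CPM in NR GR-Con and 1705 CPM in the male DR GR-Con library. Its part in the result was not tested. VLMC numbers were 20 and 47 nuclei in NR GR-KO and 53 and 65 in DR GR-KO. Flrt2, whose highest mean was in VLMCs, was 409.5 and 572 CPM in NR GR-KO and 663 and 678 CPM in DR GR-KO (0.19, adjusted p = 0.8) and was not called. Tenm1 was also called in SMC-Peri (-2.90, adjusted p = 0.019), where NR GR-KO had 14 and 29 nuclei and DR GR-KO 19 and 31, with 7228 and 6078 CPM of neuronal RNA in NR GR-KO and 1076 (10 of 11 genes) and 4968 CPM (9 of 11) in DR GR-KO.

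Tenm1 in astrocytes was 29.6 and 22.2 CPM in NR GR-KO and 12.1 and 11.8 CPM in DR GR-KO, without overlap (-1.03, SE 0.20, adjusted p = 8.5e-05). Neuronal RNA in astrocytes was 1173 and 1143 CPM in NR GR-KO and 893 and 865 CPM in DR GR-KO, with all 11 genes detected, and its part in the result was not tested. Flrt2 in L6CT was 567 and 648 CPM in NR GR-KO and 433 and 363 CPM in DR GR-KO, without overlap (-0.60, SE 0.17, adjusted p = 0.014). The call ended without the female NR GR-KO (0.14), male DR GR-KO (0.17) or female DR GR-KO library (0.43) and under the quasi-likelihood test (0.074), and in GR-Con the L6CT libraries overlapped, at 658 and 649 CPM in NR and 795 and 497 CPM in DR. Tenm3 in Sst, with the levels given above, was higher in DR by 0.89 (SE 0.21, adjusted p = 0.015), lost without the male (0.9) or female (0.78) DR GR-KO library and under the quasi-likelihood test (0.33).

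The other 10 calls were Flrt2 lower in L4, L5IT, L6IT and astrocytes, Tenm1 and Tenm2 lower in oligodendrocytes, Tenm1 lower in SMC-Peri as given above, and Flrt1 in L6CT and L5PT and Tenm2 in L2/3 higher. Their adjusted p ran from 0.018 to 0.05, and each ended in at least 2 of the 4 fits that left out 1 library and under the quasi-likelihood test (adjusted p of 0.06 to 0.55). Every one of these calls but Tenm1 in SMC-Peri ended without either DR GR-KO library, with adjusted p of 0.11 to 1.0, and that one ended without the male NR GR-KO (0.15) or male DR GR-KO library (0.23). A sex term ended Tenm1 in SMC-Peri (0.12) and Flrt1 in L5PT (0.053) but raised the calls to 29 in all, 10 higher and 19 lower (6.18% over all genes), Flrt2 in L2/3 (5.4e-08) among those gained. The fits with no filter lost Flrt1 in L6CT and L5PT, Flrt2 in L4, L5IT and astrocytes, and Tenm2 in L2/3. They also lost Tenm1 in oligodendrocytes and SMC-Peri, and the losses under DESeq2 are named above. In oligodendrocytes neuronal RNA was 683 and 821 CPM in NR GR-KO and 400 and 399 CPM in DR GR-KO. Of 266 partner pairs 29 were called, 18 higher and 11 lower, led by Shank2 (-3.67, adjusted p = 3.9e-17) and Unc5d (-3.85, adjusted p = 2.9e-08) in VLMCs and Unc5a in L2/3 (0.98, adjusted p = 8.8e-05), the last lost under the quasi-likelihood test (0.053) and in 1 of the 4 fits that left out 1 library.

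**Figure D4:**
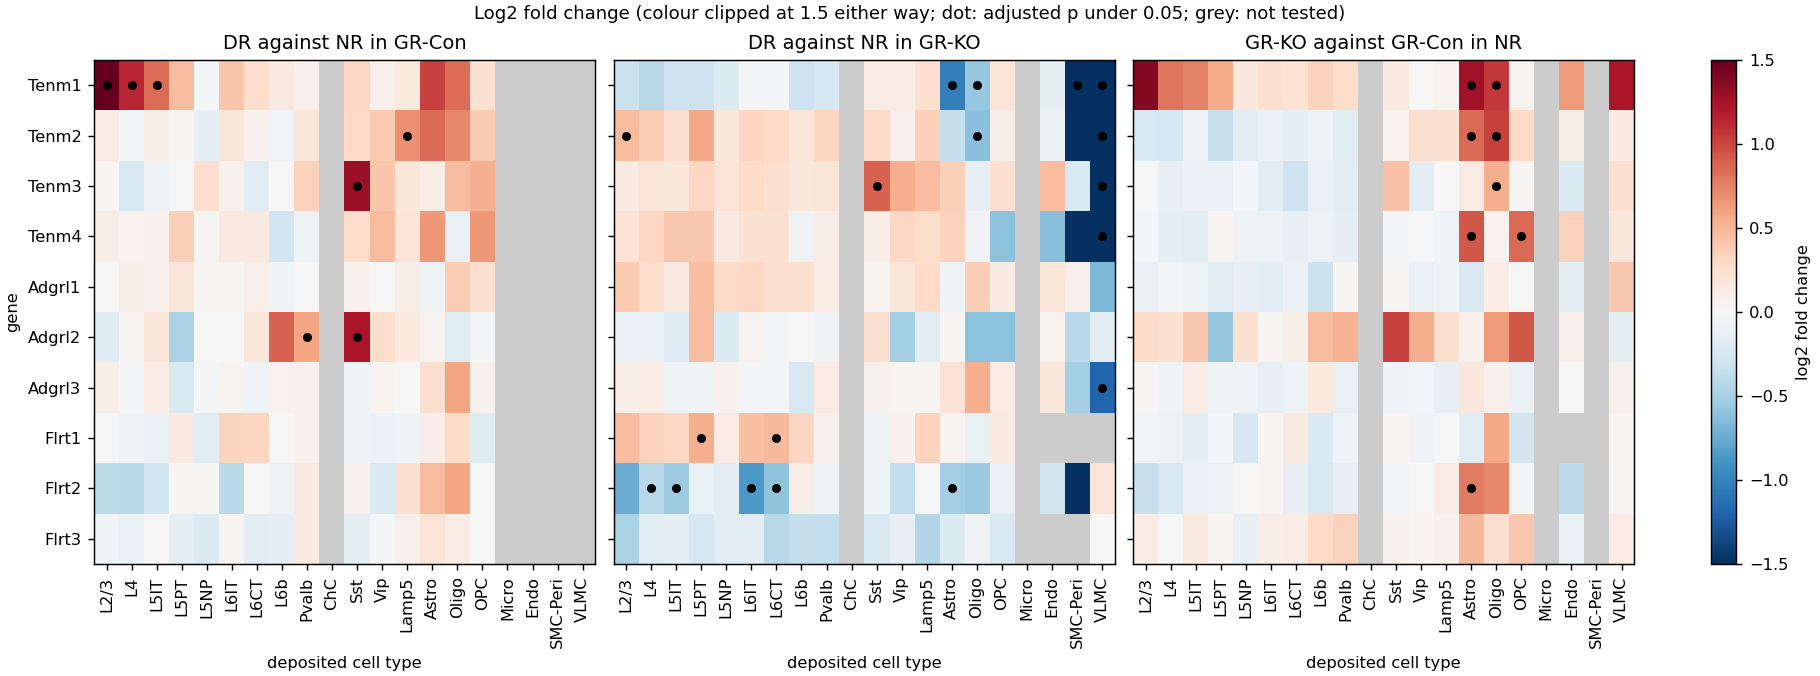
Log2 fold change of each gene (rows) in each cell type (columns) for 3 comparisons, as colour limited to 1.5 in either direction, with a dot where the adjusted p was under 0.05 and grey where the pair was not tested. The dots number 7 in GR-Con, 18 in GR-KO and 8 for the vector contrast (GR-KO over GR-Con) in NR, the last all in astrocytes, oligodendrocytes and OPCs.

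Under normal light the 2 GR-KO libraries were set against the 2 GR-Con libraries, to ask what the Cre vector in astrocytes changed. Of 169 pairs 8 were called, all higher in GR-KO, against 0.804% over all genes (0.491% higher). DESeq2 called 6 (0.433% over all genes) and the quasi-likelihood test 4 (0.361%). All 8 were in glia. In the 80 pairs of excitatory neurons the likelihood ratio test, the quasi-likelihood test and DESeq2 called 0, with 6, 12 and 9 at an unadjusted p under 0.05. The likelihood ratio test called 0.363% of all genes there. Over all cell types 12083 of 225061 pairs of all genes and 26 of the 169 member pairs had an unadjusted p under 0.05 by that test. Shares over all genes for the other tests in excitatory neurons are not given. With a sex term 13 of the 169 pairs were called (1.84% of all genes), and 4 of the 80 (1.14% of all genes), Tenm1 in L2/3 (adjusted p = 0.0036), L4 (0.0093) and L5PT (0.02) and, lower in GR-KO, Adgrl2 in L5PT (0.018). In L5PT the female NR GR-KO library had only 59 nuclei. The share of all genes called was 7.11% in astrocytes, 1.53% in oligodendrocytes and 0.355% in OPCs.

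Tenm4 in astrocytes was 48.5 and 49.4 CPM in NR GR-Con and 98.5 and 96.2 CPM in NR GR-KO. The groups were separated by more than their spread, at 49.0 ± 0.678 against 97.3 ± 1.67 CPM (SD, n = 2), and the log2 fold change was 0.93 (SE 0.14, adjusted p = 5.7e-09), called in each alternative test and without any 1 library. Tenm2 in astrocytes was 129 and 108 CPM in NR GR-Con and 214 and 233 CPM in NR GR-KO (0.85, SE 0.15, adjusted p = 2.3e-06). Tenm1 was 13.3 and 7.32 CPM against 29.6 and 22.2 CPM (1.26, SE 0.26, adjusted p = 8.8e-05), and Flrt2 was 21.2 and 26.4 CPM against 42.2 and 43.0 CPM (0.78, SE 0.17, adjusted p = 2.0e-04). None of these 4 genes overlapped between the groups, but they were picked as called, and overlap was not counted over all genes. The Flrt2 call ended without the male NR GR-Con library (0.61).

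Oligodendrocytes had 13.8 and 10.2 CPM of Tenm1 in NR GR-Con and 27.5 and 24.6 CPM in NR GR-KO (1.06, SE 0.20, adjusted p = 4.6e-05), a call lost under the quasi-likelihood test (0.063). Tenm2 had 108 and 132 CPM in NR GR-Con and 213 and 288 CPM in NR GR-KO (1.02, SE 0.20, adjusted p = 1.6e-04), lost without the male NR GR-Con library (0.86, adjusted p = 0.092) and under the quasi-likelihood test (0.063). Tenm3 had 39.4 and 41.0 CPM against 59.7 and 61.6 CPM (0.55, SE 0.15, adjusted p = 0.015), and this call ended without any 1 of the 4 libraries (adjusted p = 0.59 and 0.2 without the male and female NR GR-Con, 0.062 and 0.086 without the male and female NR GR-KO), under the quasi-likelihood test (0.13) and under DESeq2 (0.25). Tenm4 in OPCs was 26.5 and 17.7 CPM in NR GR-Con and 41.5 and 41.9 CPM in NR GR-KO (0.85, SE 0.22, adjusted p = 0.036), lost without the female NR GR-Con (0.6), male NR GR-KO (0.16) or female NR GR-KO library (0.13), under the quasi-likelihood test (0.12) and under DESeq2 (1.0). The GR-KO libraries were above both GR-Con ones for all 4 of these called pairs, and such separation was not counted over all genes.

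Neuronal RNA moved in the same direction in these glia. In astrocytes the 11 neuronal genes summed to 704 and 588 CPM in NR GR-Con and 1173 and 1143 CPM in NR GR-KO, in oligodendrocytes to 442 and 376 CPM against 683 and 821 CPM, and in OPCs to 1033 and 871 CPM against 1284 and 1362 CPM. All 11 had UMIs in every library of the 3 types. Their part in the result was not tested.

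**Figure D5:**
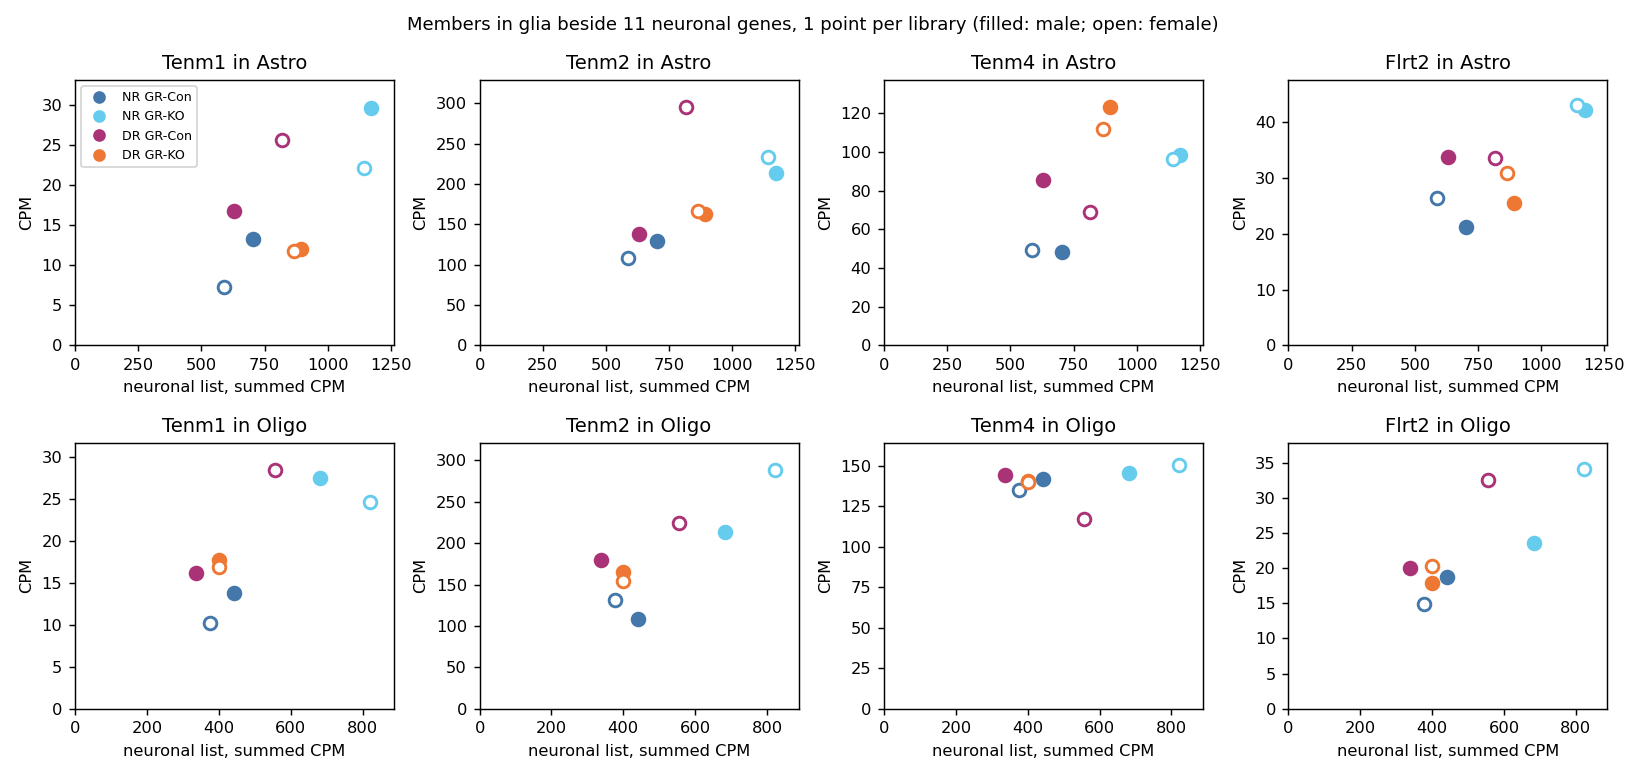
Tenm1, Tenm2, Tenm4 and Flrt2 in astrocytes (top) and oligodendrocytes (bottom), in CPM from 0 on the vertical axis, against the summed CPM of 11 neuronal genes in the same cells on the horizontal axis, 1 point per library. In astrocytes the NR GR-KO libraries lie farthest right, at 1143 to 1173 CPM, and the DR GR-KO libraries at 865 to 893 CPM. Between these groups Tenm1 goes from 22.2 to 29.6 down to 11.8 to 12.1 CPM and Flrt2 from 42.2 to 43.0 down to 25.4 to 30.9 CPM. Tenm2 goes from 214 to 233 down to 163.5 to 167 CPM, while Tenm4 goes from 96.2 to 98.5 up to 112 to 123 CPM. The DR GR-Con libraries lie at 629.5 (male) and 817 (female) CPM. They had 16.9 and 25.7 CPM of Tenm1, 138.7 and 295.5 CPM of Tenm2, 85.6 and 68.8 CPM of Tenm4 and 33.8 and 33.5 CPM of Flrt2.

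Partners called in the same comparison were 10 of 254 pairs, led by the netrin receptor gene Unc5c in astrocytes (0.93, adjusted p = 2.5e-08), Robo1 in L4 (1.54, adjusted p = 4.4e-07) and Unc5d in Vip (1.03, adjusted p = 4.7e-07). The quasi-likelihood test called neither Robo1 in L4 (0.9) nor Unc5d in Vip (0.12), and the latter was also lost in 2 of the 4 fits that left out 1 library.

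In darkness the same contrast gave 0 calls among 150 pairs by the likelihood ratio test (14 at an unadjusted p under 0.05) and 0 by the quasi-likelihood test (21 at an unadjusted p under 0.05), with 1 called by DESeq2. Over all genes these 3 tests called 0.513%, 0.00431% and 0.372%. By the likelihood ratio test 12863 of 208905 pairs of all genes had an unadjusted p under 0.05. With a sex term 3 pairs were called, all lower in GR-KO (1.16% over all genes), Tenm1 in L2/3 (adjusted p = 0.0022), L4 (6.2e-11) and L5IT (0.023). In a fit of 2 libraries against 2 the sex term leaves few libraries to estimate the spread. The quasi-likelihood test was not run with it. The pair called by DESeq2 was Flrt2 in L2/3, at 372 and 326 CPM in DR GR-Con and 173 and 239.7 CPM in DR GR-KO, without overlap (log2 fold change -0.70, SE 0.23, adjusted p = 0.17 by the likelihood ratio test and 0.026 by DESeq2). Tenm4 in astrocytes was 85.6 and 68.8 CPM in DR GR-Con and 123 and 112 CPM in DR GR-KO, again without overlap, at 0.62 (SE 0.22, adjusted p = 0.24). Of 226 partner pairs 1 was called, Unc5a in L5IT (0.71, adjusted p = 4.4e-04), a call lost under the quasi-likelihood test (0.17) and in 2 of the 4 fits that left out 1 library. With a sex term 6 partner pairs were called.

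Over both rearings, 4 GR-KO libraries against 4 GR-Con libraries that include all those above, 1 of 150 pairs was called, against 0.4% over all genes. The quasi-likelihood test called 1 (0.196% over all genes) and DESeq2 called 2 (0.32%). The second DESeq2 call was Flrt2 in L4, lower in GR-KO (-0.25, SE 0.08, adjusted p = 0.0042 by DESeq2), which the likelihood ratio test (0.29) and the quasi-likelihood test (0.54) did not call. The pair called by all 3 tests was Tenm4 in astrocytes, at 107.5 ± 12.7 CPM with Cre and 63.1 ± 17.7 CPM with ΔCre (SD, n = 4), with every GR-KO library above every GR-Con library (0.77, SE 0.13, adjusted p = 1.5e-07). It was called by all tests and scalings tried and without any 1 of the 8 libraries. Neuronal RNA in astrocytes was 588 to 817 CPM in the GR-Con and 865 to 1173 CPM in the GR-KO libraries, which do not overlap, and its part in the result was not tested. Of 230 partner pairs 5 were called, all in astrocytes, led by Unc5c (0.81, adjusted p = 6.0e-10), Shank2 (0.76, adjusted p = 5.8e-05) and the contactin gene Cntn6 (0.64, adjusted p = 0.0022), each higher in GR-KO. The other 2, Fgfr3 (-0.42, adjusted p = 0.0063) and Nrxn2 (-0.43, adjusted p = 0.022), were lower. The Nrxn2 call was lost under the quasi-likelihood test (0.058) and in 6 of the 8 fits that left out 1 library, and the Fgfr3 call in 2 of the 8. With a sex term Robo1 in oligodendrocytes was also called (adjusted p = 0.0014).

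The interaction asked whether the genotype difference in NR differed from that in DR. Of 150 pairs 3 were called, against 0.181% over all genes, with 1 by DESeq2 (0.13% over all genes). The quasi-likelihood test called 0 (0.00276% over all genes, and 31 of the members' pairs at an unadjusted p under 0.05). With a sex term 8 were called (0.59% over all genes), the 3 here and Tenm1 in L2/3, L4 and L5IT, Flrt2 in astrocytes and Adgrl2 in L5PT. Tenm2 in oligodendrocytes was 108 and 132 CPM in NR GR-Con, 213 and 288 CPM in NR GR-KO, 180.2 and 225 CPM in DR GR-Con and 165 and 155 CPM in DR GR-KO. GR-KO was higher in NR and lower in DR, and the difference between the 2 genotype effects was 1.35 on the log2 scale (SE 0.28, adjusted p = 0.0011). Tenm1 in astrocytes was 13.3 and 7.32 CPM, 29.6 and 22.2 CPM, 16.9 and 25.7 CPM, and 12.1 and 11.8 CPM in the groups in the same order (2.05, SE 0.43, adjusted p = 0.0017). Tenm1 in oligodendrocytes was 13.8 and 10.2 CPM, 27.5 and 24.6 CPM, 16.2 and 28.4 CPM, and 17.8 and 16.8 CPM (1.41, SE 0.37, adjusted p = 0.038).

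All 3 calls ended without single libraries. For Tenm2 in oligodendrocytes these were the male NR GR-Con (1.19, adjusted p = 0.092), male DR GR-KO (1.38, adjusted p = 0.06) and female DR GR-KO (1.31, adjusted p = 0.098) libraries. For Tenm1 in astrocytes they were the female NR GR-Con (1.70, adjusted p = 0.076), male NR GR-KO (1.85, adjusted p = 0.065), male DR GR-KO (2.04, adjusted p = 0.12) and female DR GR-KO (2.07, adjusted p = 0.088) libraries. For Tenm1 in oligodendrocytes every library except the male DR GR-Con one ended the call, with adjusted p of 0.094 to 0.44. Neuronal RNA in the DR libraries was 629.5 and 817 CPM in GR-Con and 893 and 865 CPM in GR-KO in astrocytes, and 338 and 556 CPM in GR-Con and 400 and 399 CPM in GR-KO in oligodendrocytes, beside the NR values above, and its part in the result was not tested. None of 230 partner pairs was called by the likelihood ratio test, the quasi-likelihood test or DESeq2, with 30, 42 and 29 at an unadjusted p under 0.05. By the likelihood ratio test 11757 of 217689 pairs of all genes had an unadjusted p under 0.05. With a sex term 6 partner pairs were called, Robo1 in L4 (adjusted p = 2.5e-05), L5IT (4.6e-04), L2/3 (0.013) and astrocytes (0.049), Unc5d in Vip (6.5e-04) and Unc5a in L5IT (0.048).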

How the data were processed

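Nuclei from V1 of 8 mice were profiled by 10x single-nucleus RNA-seq. Per the authors' methods, reads were counted with Cell Ranger 8.0.1 on mm10 with eGFP added, nuclei with few or very many counts and doublets were removed, and libraries were merged and clustered in Seurat. The deposited matrix holds raw UMI counts, with the library and cell type of each nucleus, and no per-sample column was left unused. From these, UMI counts were summed per library and deposited cell type, keeping types with at least 10 nuclei in every library of a fit. Each type was fitted in R 4.3.3 with the edgeR 4.0.16 likelihood ratio test after its expression filter and TMM scaling, with Benjamini-Hochberg adjustment within the type and a threshold of 0.05. The quasi-likelihood test, DESeq2 1.42.0, RLE factors, no filter, at least 50 nuclei, a sex term and leaving out each library were alternatives. The scripts were tested on simulated counts of L2/3 and L6b, for DR against NR in GR-Con and over both vectors and for the interaction. The test required the sign and the median size of known changes to be recovered. It set no limit on the share of false calls. Comparisons of DR with NR in each vector and over both share libraries, as do those of GR-KO with GR-Con. The members, partners and marker lists were chosen with earlier results of these data known. Up to 8 called pairs per comparison, in order of adjusted p, are given by library, with up to 3 partner pairs. Each library is 1 mouse, so p-values rest on 2 mice per group.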

Additional observations from a re-analysis of the deposited data

Results flagged for a closer look

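In the 4 DR libraries, Tenm2 in Lamp5 was 2174 CPM in the female DR GR-Con library and 1907 to 1948 CPM in the other 3, a gap of 0.846 of the whole range. It was 1 of 32 groups of 4 libraries examined for a library far from the others, and chance flags about 1 in 20 groups.

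The genotype difference differed between NR and DR, by the interaction test of edgeR, for Tenm1 in astrocytes (2.05 on the log2 scale, adjusted p = 0.0017), Tenm2 in oligodendrocytes (1.35, adjusted p = 0.0011) and Tenm1 in oligodendrocytes (1.41, adjusted p = 0.038). The quasi-likelihood test gave adjusted p of 0.26, 0.14 and 0.42 for the same pairs.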

How the results depend on the processing

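No paired analysis was possible because the library names carry no replicate number, and blocking was by sex alone, with 1 male and 1 female mouse in each group (the sex term below). Under the quasi-likelihood test the called pairs were 4 (from 8) for the vector contrast (GR-KO over GR-Con) in NR, 3 (from 7) for DR against NR in GR-Con, 5 (from 18) in GR-KO, 8 (from 15) over both vectors and 0 (from 3) for the interaction. DESeq2 called 1 (from 0) for the vector contrast in DR, 2 (from 1) over both rearings and 1 for the interaction. A sex term gave 13 for the vector contrast in NR, 3 in DR, 15 for DR against NR in GR-Con, 29 in GR-KO and 8 for the interaction, and no filter gave 10 for DR against NR in GR-KO. Leaving out 1 library gave 6 to 14 and 0 to 8 calls for the vector contrast in NR and DR, 4 to 15, 5 to 28 and 5 to 18 for DR against NR in GR-Con, in GR-KO and over both, 1 to 2 for the vector contrast over both rearings and 0 to 9 for the interaction. For the vector contrast in DR, with 0 calls in the full fit, calls came without the male or female DR GR-Con library. The cause of these changes was not tested. The share of all genes called is not given for the fits that left out 1 library. Whether the members' counts in those fits exceed a general rise in calls therefore cannot be told. Called pairs are counted below once per comparison. A pair called in several comparisons that share libraries, such as Tenm4 in astrocytes, is therefore counted each time. Of 52 called pairs, 13 kept their call under the other 3 ways of testing or scaling, without the filter, with a sex term and without each library, and 0 changed direction. At a minimum of 50 nuclei 6 of the 52, 3 of those 13 among them (Tenm2, Tenm3 and Tenm4 in VLMCs), could not be fitted, and the fits of the others are the same. Calls were lost for 31 pairs under the quasi-likelihood test, 13 under DESeq2, 10 with no filter, 2 with a sex term and 1 with RLE factors. Leaving out a library leaves 1 mouse in a group, whose spread is assumed to be that of the others. In the fits of 2 libraries against 2, a sex term leaves few libraries to estimate the spread. It was not combined with the quasi-likelihood test.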
